A study of Mus musculus with 10 samples.

Results

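Transcripts of 8 lysosomal genes were followed in hippocampi of 30-month-old male C57BL/6 mice. The genes were the cathepsins Ctsb, Ctsd, Ctsl and Ctsz, the prosaposin gene Psap, and the membrane protein genes Lamp1, Lamp2 and Npc1. They were taken by name, together with every probe set (short probes read together for a transcript) that the platform's annotation gives to a single gene of this set. That gave 14 probe sets for 8 of the 8251 genes named on the array. Of these, 13 probe sets, covering all 8 genes, lay above the filter on dim signal, and 1 of the 4 for Ctsb did not. Hippocampal total RNA came from 5 mice on a control diet and 5 that were calorie restricted, each measured on its own Affymetrix array. No genotype or treatment other than diet is labelled, and the labels used here give neither the degree of restriction nor its length beyond the series' term long-term. Whole hippocampus mixes cell types, so fewer cells of a type and less RNA per cell cannot be told apart. Of 11 neuronal markers on the array 10 lay above the filter, and all 10 astrocyte markers did.

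Lysosomes are acidic organelles in which proteins, lipids and whole organelles are broken down. Cathepsins are made as inactive precursors, carried there mostly by mannose 6-phosphate receptors and activated by the low pH, and saposins cut from prosaposin help enzymes reach sphingolipids. LAMP proteins line the inner face of the membrane, and NPC1 passes cholesterol out of the lumen. In brain, loss of Ctsd, Psap or Npc1 causes lysosomal storage with loss of neurons, and microglia are rich in many of these transcripts.

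RNA quality differed between the diets and has to be read beside every value here. Each array carries control probe sets for both ends of the Gapdh and Actb transcripts, and the 3' signal exceeds the 5' signal where RNA is degraded. Their mean log2 difference was 0.16 ± 0.24 in control and 2.88 ± 2.57 in calorie restricted mice (SD, n = 5 each; exact two-sided permutation p = 0.00794, adjusted p = 0.00992 over 5 measures), and the groups did not overlap. Calorie restricted replicates 3 and 5 stood apart at 5.20 and 6.11, against 0.78 to 1.52 in the other 3. Without those 2 arrays the difference between diets was 0.876 (exact two-sided permutation p = 0.0179). Hybridisation spike-ins, bacterial transcripts added to each sample, were brighter in calorie restricted mice, at a mean log2 signal of 13.05 ± 0.47 against 11.12 ± 0.56, and the median log2 signal of an array was lower, at 7.49 ± 0.18 against 7.84 ± 0.048 (SD, n = 5; exact permutation adjusted p = 0.00992 for both). Spike-in signal did not overlap between the diets either, so diet cannot be told apart from array quality here. Changes are given here as the log2 ratio of calorie restricted to control mice with the median over the 7453 tested probe sets, -0.15, taken off. The limma test is of the ratio before that step, which favours falls over rises of equal printed size. Changes also went with brightness: the median was 0.28 in the brightest 1491 tested probe sets and -0.26 in the dimmest 1491.

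Npc1 and Lamp1 signals were higher in calorie restricted mice, 1.88-fold and 1.68-fold with the median change taken off. A probe set of Lamp2 was lower, at 0.552-fold on the same scale, and so was a probe set of Psap, at 0.786-fold. Before the median was taken off, the log2 ratios were 0.757, 0.593, -1.01 and -0.501 in the same order. No cathepsin probe set passed the threshold. In all, 4 of the 13 tested member probe sets passed a limma adjusted p under 0.05, which is 30.8%, against 11.8% of all tested probe sets. The members were chosen with earlier results of these data known, so the shares given here describe them and do not test them as a set. There were 2 that rose and 2 that fell, where 4.11% and 7.74% of all probe sets did. Under quantile normalization 2 passed, Npc1 and a Ctsb probe set, both higher, where 321 of all 7453 were higher and 282 lower. With each array centred on its median 3 passed, these and Lamp1, all higher, where 575 of all 7453 were higher and 266 lower. The median change over the 13 was 0.19. The arrays of the 2 diets did not overlap in 5 of the 13, or 38.5%, against 14.3% of all tested probe sets. Of these 5, 3 were higher and 2 lower in calorie restricted mice, where 4.96% and 9.35% of all tested probe sets were. Without calorie restricted replicates 3 and 5, 5 of the 13 passed, against 10.8% of all tested probe sets, and they included the 4 that passed on all arrays.

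**Figure D1:**
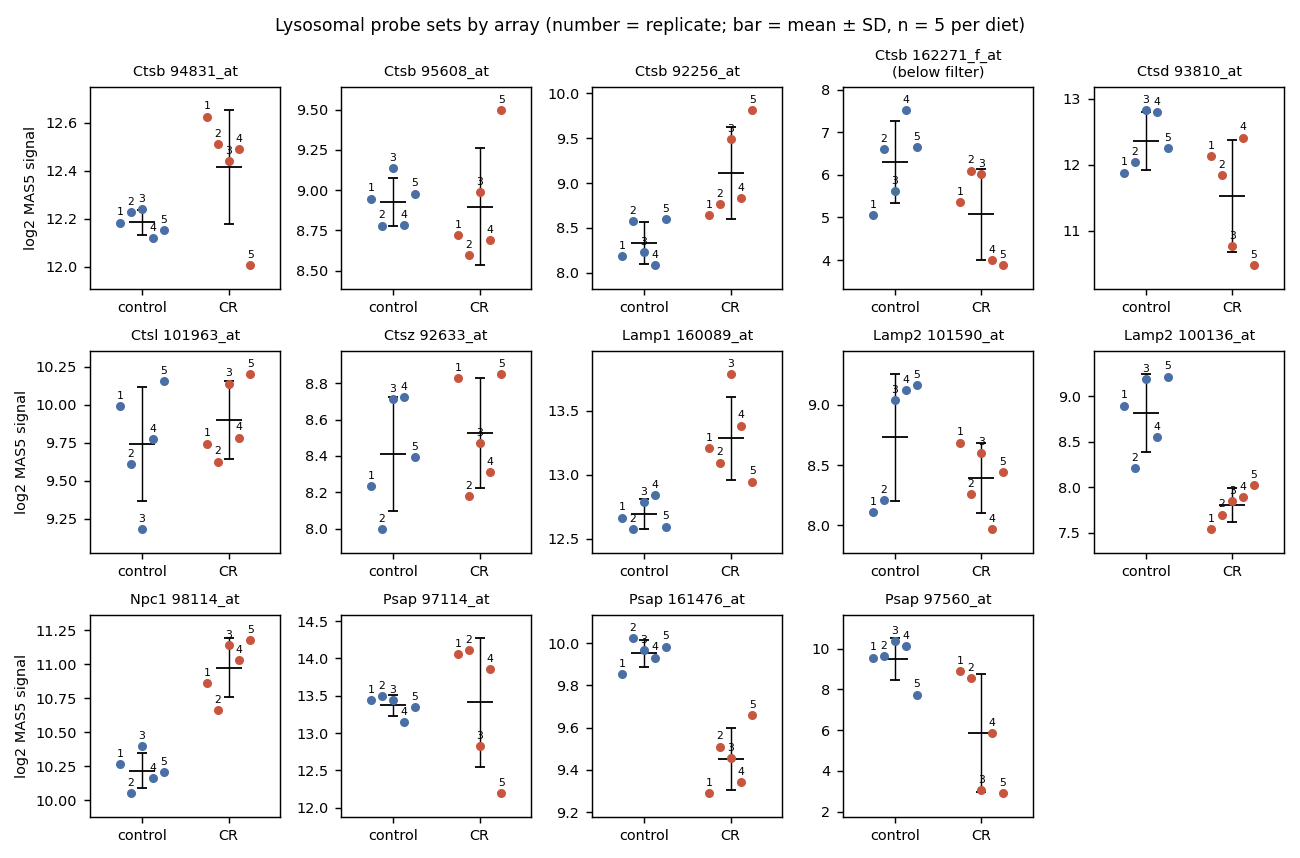
Log2 MAS5 signal of the 14 probe sets on each array, with control mice in blue, calorie restricted (CR) mice in red, the replicate number beside each point and bars for mean ± SD (n = 5 per diet); each panel has its own scale. The diets do not overlap for Npc1, Lamp1, Lamp2 100136_at, Psap 161476_at and Ctsb 92256_at, while calorie restricted replicates 3 and 5 are the lowest arrays for Ctsd, Psap 97114_at and Psap 97560_at.

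Among the membrane proteins, Npc1 had the smallest adjusted p of the 13. NPC1 takes cholesterol released from lipoproteins and hands it across the lysosomal membrane. Its probe set 98114_at had intensities of 1231, 1061, 1352, 1145 and 1182 in control replicates 1 to 5, and of 1857, 1619, 2260, 2093 and 2316 in calorie restricted replicates 1 to 5. Every calorie restricted array lay above every control array. The log2 change was 0.91 ± 0.16 (SE, n = 5 per diet; limma adjusted p = 0.0153). It passed with each of the 10 arrays left out in turn, at 0.83 to 0.997, and at 0.74 ± 0.14 with calorie restricted replicates 3 and 5 both left out (limma adjusted p = 0.0222). Npc1 is among the brightest 1491 tested probe sets, of which 11.1% rose. Under quantile normalization its change was 0.73 (limma adjusted p = 0.0182). With RNA quality as a covariate it was 0.66 and did not pass (limma adjusted p = 0.0643).

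Lamp1 encodes one of the most abundant glycoproteins of the lysosomal membrane. Its probe set 160089_at had 6492, 6090, 7050, 7329 and 6179 in control replicates 1 to 5, and 9473, 8746, 14108, 10678 and 7892 in calorie restricted replicates 1 to 5. The groups did not overlap, and calorie restricted replicate 3 was the highest. The log2 change was 0.75 ± 0.18 (SE, n = 5 per diet; limma adjusted p = 0.0470), just inside the threshold. Lamp1, like Npc1, is among the brightest 1491 tested probe sets. Under quantile normalization its change fell to 0.24 (limma adjusted p = 0.399). With 1 array left out the change ran from 0.63 to 0.81, and 2 of 10 fits passed, those without calorie restricted replicate 2 or 5. Without replicates 3 and 5 together it was 0.65 ± 0.13 and passed (limma adjusted p = 0.0262).

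Lamp2, the paralogue of Lamp1, is needed for fusion of autophagosomes with lysosomes, and its isoforms differ at the end of the transcript. Probe set 100136_at had 476, 297, 582, 376 and 594 in control replicates 1 to 5, and 186, 208, 231, 238 and 261 in calorie restricted replicates 1 to 5. All calorie restricted arrays were lower than all control arrays. The log2 change was -0.86 ± 0.23 (SE; limma adjusted p = 0.0213). This probe set is among 1490 that rank just above the dimmest 1491, and 11.3% of those 1490 fell while 1.68% rose. Leaving out calorie restricted replicates 3 and 5 gave -0.99 ± 0.26 (limma adjusted p = 0.0252). It missed the threshold without control replicate 1 or 3, at -0.84 and -0.76 (limma adjusted p = 0.0505 and 0.0618), under quantile normalization at -0.73 (limma adjusted p = 0.0846), and narrowly with each array centred on its median (limma adjusted p = 0.0531). The other Lamp2 probe set, 101590_at, had 276, 296, 526, 558 and 575 in control and 412, 306, 389, 250 and 348 in calorie restricted replicates 1 to 5, so the groups overlapped. Its change was -0.18 ± 0.26 (SE; limma adjusted p = 0.396). Whether the 2 probe sets read different isoforms was not tested.

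Lamp1 and Lamp2 also differ in the sequence at their start sites. The RefSeq promoter windows (GRCm38.p6, 250 bases before to 50 after the start) were searched on both strands for CACGTG. This palindrome is the core of the CLEAR element, to which TFEB, a transcription factor of lysosomal genes, is known to bind. On all arrays the Lamp1 probe set and Lamp2 100136_at passed in opposite directions. Neither passed under quantile normalization (limma adjusted p = 0.399 and 0.0846), and the other Lamp2 probe set did not pass. The windows of Lamp1 and Lamp2 are shown for that contrast, and that of Ctsd because it holds the core although Ctsd did not pass. They lie at chr8:13158911-13159210 on the plus strand for Lamp1, chrX:38456411-38456710 on the minus strand for Lamp2 and chr7:142387778-142388077 on the minus strand for Ctsd. Each is written 5′ to 3′ along the gene, with CACGTG in capitals.
Lamp1: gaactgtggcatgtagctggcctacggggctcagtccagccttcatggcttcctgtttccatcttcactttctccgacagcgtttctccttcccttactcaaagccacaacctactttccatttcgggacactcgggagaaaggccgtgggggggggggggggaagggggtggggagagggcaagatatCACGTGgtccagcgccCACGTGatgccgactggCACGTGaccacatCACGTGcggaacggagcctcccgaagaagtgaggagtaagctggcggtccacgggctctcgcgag
Lamp2: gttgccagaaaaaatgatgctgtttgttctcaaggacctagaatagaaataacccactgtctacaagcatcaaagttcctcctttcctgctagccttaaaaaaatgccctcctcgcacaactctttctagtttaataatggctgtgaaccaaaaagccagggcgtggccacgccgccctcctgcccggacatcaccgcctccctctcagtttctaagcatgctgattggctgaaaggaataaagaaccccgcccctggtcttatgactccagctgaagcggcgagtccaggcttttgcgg
Ctsd: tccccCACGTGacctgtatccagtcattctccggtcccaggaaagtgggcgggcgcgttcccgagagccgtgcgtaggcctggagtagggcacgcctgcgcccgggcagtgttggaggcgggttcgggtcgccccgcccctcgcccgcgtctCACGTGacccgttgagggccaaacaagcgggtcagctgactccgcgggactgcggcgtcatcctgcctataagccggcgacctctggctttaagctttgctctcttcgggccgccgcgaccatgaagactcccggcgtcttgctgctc
The Lamp1 window holds 4 copies, starting 61, 45, 28 and 15 bases before the start site, that of Ctsd holds 2, at 245 and 98 bases before it, and that of Lamp2 holds none. Over 32851 windows of the same length, 7.15% hold at least 1 copy, 0.594% at least 2, and 8 windows (0.0244%) at least 4. Ctsl holds 1 copy, at 236 bases before its start, and Ctsz and both Psap windows hold none. TCACGTGA, which contains the core, was found once in the Ctsd window and in none of the others searched, where 0.974% of all windows hold it. Ctsb and Npc1 were not searched. A match describes these letters, and binding was not measured.

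Prosaposin is cut into small saposins, each the helper of particular sphingolipid hydrolases, and the 3 probe sets of Psap did not move together. The brightest, 97114_at, had 11121, 11580, 11093, 9046 and 10409 in control replicates 1 to 5, and 17104, 17722, 7262, 14827 and 4675 in calorie restricted replicates 1 to 5. Calorie restricted replicates 1, 2 and 4 lay above all control arrays, and replicates 3 and 5 below all of them. On all arrays the change was 0.19 ± 0.34 (SE; limma adjusted p = 0.952). Without replicates 3 and 5 it was 0.75 ± 0.13, or 1.68-fold, and passed (limma adjusted p = 0.0177), as it did with RNA quality as a covariate, at 1.02 (limma adjusted p = 0.0209).

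Psap probe set 161476_at went the other way. It had 925, 1040, 1002, 977 and 1012 in control and 625, 729, 702, 650 and 808 in calorie restricted replicates 1 to 5, with no overlap. The change was -0.35 ± 0.15 (SE; limma adjusted p = 0.0449). Leaving out calorie restricted replicates 3 and 5 gave -0.46 ± 0.14 (limma adjusted p = 0.0260). Of 10 fits with 1 array left out it passed in 2, those without calorie restricted replicate 2 or 5, at -0.31 to -0.42 over the 10. With each array centred on its median it did not pass (limma adjusted p = 0.244). Without replicates 3 and 5, then, 2 probe sets of the same gene passed in opposite directions.

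The third Psap probe set, 97560_at, had the widest range of the 14. It had 756, 798, 1317, 1111 and 215 in control and 480, 381, 8.29, 58.4 and 7.39 in calorie restricted replicates 1 to 5. The 2 arrays with the largest difference between the 3' and 5' controls had the lowest signals, calorie restricted replicate 4 came next in both, and control replicate 5, with the largest 3' to 5' difference of its group at 0.45, had the lowest control signal. The change was -3.48 ± 1.12 (SE; limma adjusted p = 0.0536). Leaving out calorie restricted replicates 3 and 5 gave -1.59 ± 0.70 (limma adjusted p = 0.131). The calorie restricted mean log2 signal of 5.86 lay below 6.85, the lowest mean tested, so the size of this difference is uncertain. Where in the transcript the 3 probe sets lie was not analysed here.

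**Figure D2:**
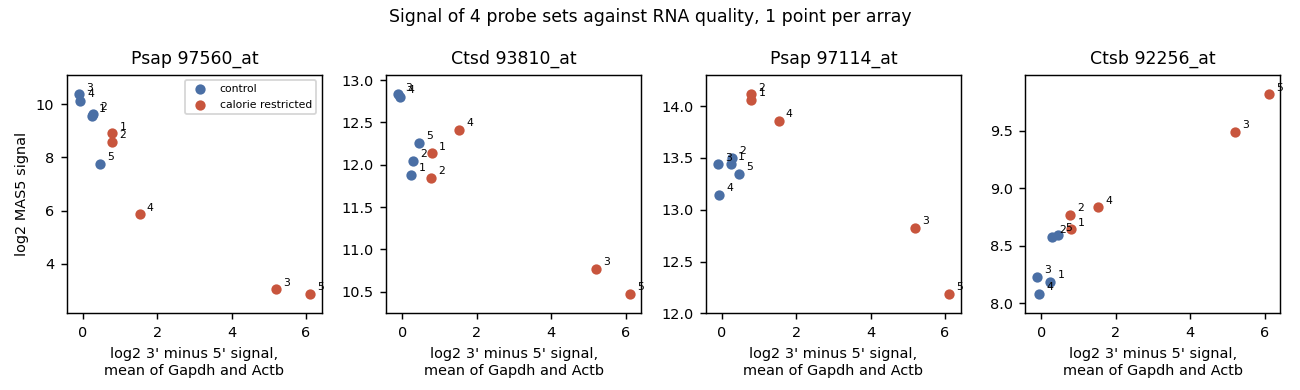
Log2 MAS5 signal of Psap 97560_at, Ctsd 93810_at, Psap 97114_at and Ctsb 92256_at (vertical) against the log2 3' minus 5' difference averaged over Gapdh and Actb (horizontal), 1 point per array with its replicate number, control in blue and calorie restricted in red. Calorie restricted replicates 3 and 5, at 5.20 and 6.11 on the horizontal axis, are the lowest arrays of the first 3 panels and the highest of the Ctsb panel. These probe sets were picked for the largest gap between replicates 3 and 5 and the other calorie restricted arrays. They do not stand for the other tested probe sets.

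Ctsd encodes cathepsin D, the main aspartic protease of lysosomes. Its only probe set, 93810_at, had 3774, 4227, 7281, 7155 and 4905 in control and 4500, 3677, 1751, 5456 and 1428 in calorie restricted replicates 1 to 5. Calorie restricted replicates 1, 2 and 4 fell within or just under the control range, and replicates 3 and 5 lay far under it. The change was -0.68 ± 0.37 (SE; limma adjusted p = 0.142). Without those 2 arrays it was -0.12 ± 0.24 (limma adjusted p = 0.541). A covariate for RNA quality gave 0.14 (limma adjusted p = 0.930).

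Cathepsin B, from Ctsb, is a cysteine protease of the papain family. With the median taken off, its tested probe sets all had positive changes on all arrays, and none passed. The brightest, 94831_at, had 4651, 4791, 4833, 4445 and 4549 in control and 6316, 5831, 5554, 5747 and 4111 in calorie restricted replicates 1 to 5. All calorie restricted arrays except replicate 5, which was the lowest of the 10, lay above the control arrays. The change was 0.38 ± 0.15 (SE; limma adjusted p = 0.313), and 0.47 ± 0.11 without replicates 3 and 5 (limma adjusted p = 0.0648). It turned to -0.072 under quantile normalization. Probe set 92256_at had 291, 381, 300, 271 and 387 in control and 399, 436, 718, 456 and 900 in calorie restricted replicates 1 to 5, again without overlap. Its change of 0.93 ± 0.25 (SE; limma adjusted p = 0.0626) missed the threshold. It was 0.52 ± 0.20 without calorie restricted replicates 3 and 5, which had its highest signals (limma adjusted p = 0.190). It did pass under quantile normalization (1.004; limma adjusted p = 0.0349) and with arrays centred on their median (limma adjusted p = 0.0398). Probe set 95608_at ran from 439 to 562 in control and from 387 to 722 in calorie restricted mice, with a change of 0.13 ± 0.20 (SE; limma adjusted p = 0.942). It was -0.15 without calorie restricted replicates 3 and 5, where it did not pass either (limma adjusted p = 0.333). The fourth, 162271_f_at, whose identifier marks probes shared within a family, lay below the filter, with a mean log2 signal of 6.29 ± 0.96 in control and 5.07 ± 1.08 in calorie restricted mice (SD, n = 5).

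The other cysteine cathepsins overlapped between diets. Ctsl, cathepsin L, an endopeptidase, ran from 580 to 1141 with a median of 876 in control and from 790 to 1177 with a median of 882 in calorie restricted mice. Its change was 0.31 ± 0.21 (SE; limma adjusted p = 0.634), with a 95% interval from -0.15 to 0.77. Ctsz, cathepsin Z, a carboxypeptidase, ran from 256 to 422 with a median of 336 in control and from 290 to 461 with a median of 355 in calorie restricted mice. Its change was 0.27 ± 0.22 (SE; limma adjusted p = 0.742), with a 95% interval from -0.21 to 0.75. Both intervals include changes in either direction. In 9 of the 13 probe sets the SD was larger in calorie restricted mice, as in 76.0% of all tested probe sets.

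**Figure D3:**
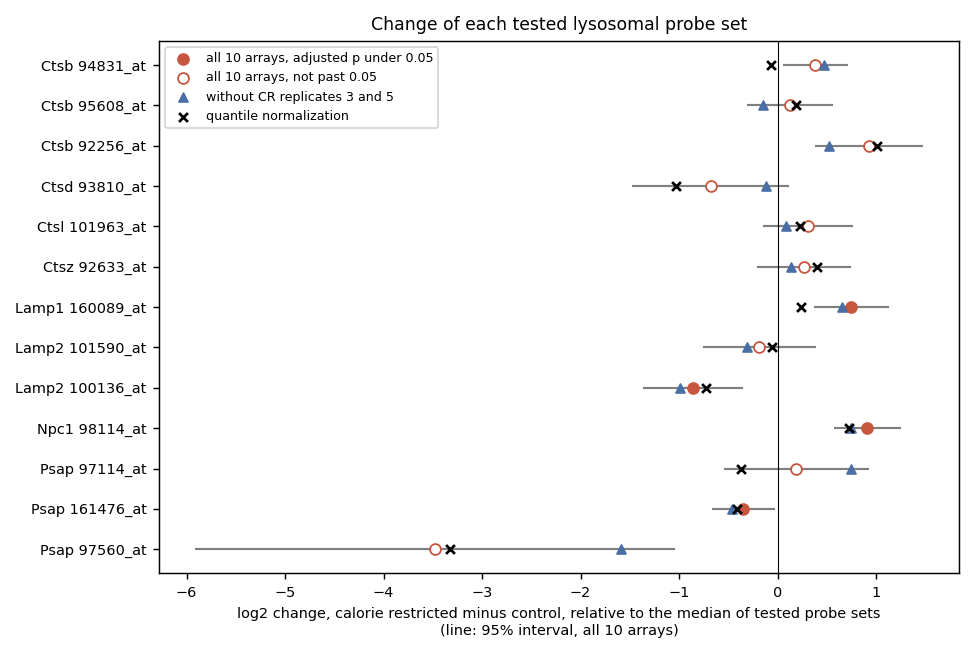
Log2 ratio of calorie restricted to control mice for each of the 13 tested probe sets, relative to the median of all tested probe sets; circles are all 10 arrays (filled where the limma adjusted p is under 0.05) with 95% intervals, triangles leave out calorie restricted (CR) replicates 3 and 5, and crosses use quantile normalization. Npc1 and the called Lamp2 and Psap probe sets stay on 1 side of 0, Lamp1 moves from 0.75 to 0.24 under quantile normalization, and Psap 97114_at lies at 0.19, 0.75 and -0.37 in the 3 settings.

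Few genes around these members passed the threshold. Over 8 lists of lysosomal and neighbouring genes, 104 genes were tested by their brightest probe set, of which 1 rose, 5 fell and 98 did not pass. That is 5.77%, against 10.5% of 5695 tested genes counted the same way, and the medians were 0.024 and 0.034. Before adjustment, 28 of the 104 genes and 1697 of the 5695 had a limma p under 0.05. Without calorie restricted replicates 3 and 5 there were 8 calls, of which 5 (Laptm4a, Ids, Ctse, Cd68 and Rragd) had also passed on all arrays. With each array centred on its median, 6 list genes rose and 3 fell, where rises also outnumbered falls over all probe sets (575 and 266).

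Among 28 hydrolases and their activators, 0 rose and 2 fell, with a median of -0.18. Ids, the enzyme iduronate sulfatase, changed by -2.01 ± 0.39 (SE; limma adjusted p = 0.0101), with a mean log2 signal of 9.69 in control and 7.53 in calorie restricted mice. Ctse, the aspartic protease cathepsin E, whose probe set can match related transcripts, changed by -1.18 ± 0.39 (limma adjusted p = 0.0451), and by -0.40 with RNA quality as a covariate. Of 17 membrane proteins and transporters, Laptm4a, a small transmembrane protein of late endosomes, rose by 0.73 ± 0.16 (limma adjusted p = 0.0409) and Cd68, the LAMP family member of microglia and macrophages, fell by 0.71 ± 0.20 (limma adjusted p = 0.0217). The other 15 did not pass, with a list median of -0.17. Laptm4a had 0.26 under quantile normalization (limma adjusted p = 0.349), and Cd68 turned to 0.11 where both RNA quality and spike-in brightness were covariates.

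Of 16 genes for sorting and trafficking to lysosomes, Gga1, a clathrin adaptor that binds mannose 6-phosphate receptors, changed by -1.95 ± 0.55 (SE; limma adjusted p = 0.0327), and 15 did not pass. Gga1 had -1.30 and did not pass without calorie restricted replicates 3 and 5 (limma adjusted p = 0.0874). Of 6 tested genes of nutrient sensing at the lysosome, all Rag and Lamtor genes and none a MiT transcription factor, Rragd, a Rag GTPase that brings mTORC1 to lysosomes, changed by -2.37 ± 0.38 (limma adjusted p = 0.00648), and 5 did not pass. Their medians were 0.0099 and 0.28. The calorie restricted mean log2 signals of Gga1 and Rragd, 6.50 and 6.48, lay below 6.85, the lowest mean tested.

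In the remaining 4 lists limma called 0 genes. Among 14 subunits of the V-ATPase, the pump that acidifies lysosomes, the median change was 0.34. Most of them lay among the brightest 1491 tested probe sets, whose median was 0.28. An unadjusted p under 0.05 was found for 1697 of all 5695 tested genes and for 4 of the 14. These 4, named after their values were seen, went both ways. Atp6v0a1 and Atp6v0a2, forms of a subunit in the membrane sector, changed by -1.67 ± 0.56 (SE; limma adjusted p = 0.0519) and -0.56 ± 0.26 (0.0874), and Atp6v1d and Atp6v1b2, of the cytosolic sector, by 0.80 ± 0.25 (0.108) and 0.57 ± 0.17 (0.109). Atp6v1b2 had 1 other tested probe set, which went the other way. Atp6v1e1, another subunit of that sector, did not pass on all arrays but did without calorie restricted replicates 3 and 5, at 0.73 ± 0.16 (SE; limma adjusted p = 0.0350), and is named here after its value was seen. Of 15 autophagy genes 1 had an unadjusted p under 0.05, with a median of 0.15. Of 5 genes that carry cholesterol beyond the lysosome 0 had, with a median of 0.21. Of 3 cathepsin inhibitors 1 had; all are named, after their values were seen. Cst3, the secreted cystatin C, changed by 0.61 ± 0.18 (limma adjusted p = 0.108), Cstb, the cytosolic cystatin B, by 0.50 ± 0.22 (limma adjusted p = 0.295) and Serpinb6a by 0.21 ± 0.20 (limma adjusted p = 0.878).

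**Figure D4:**
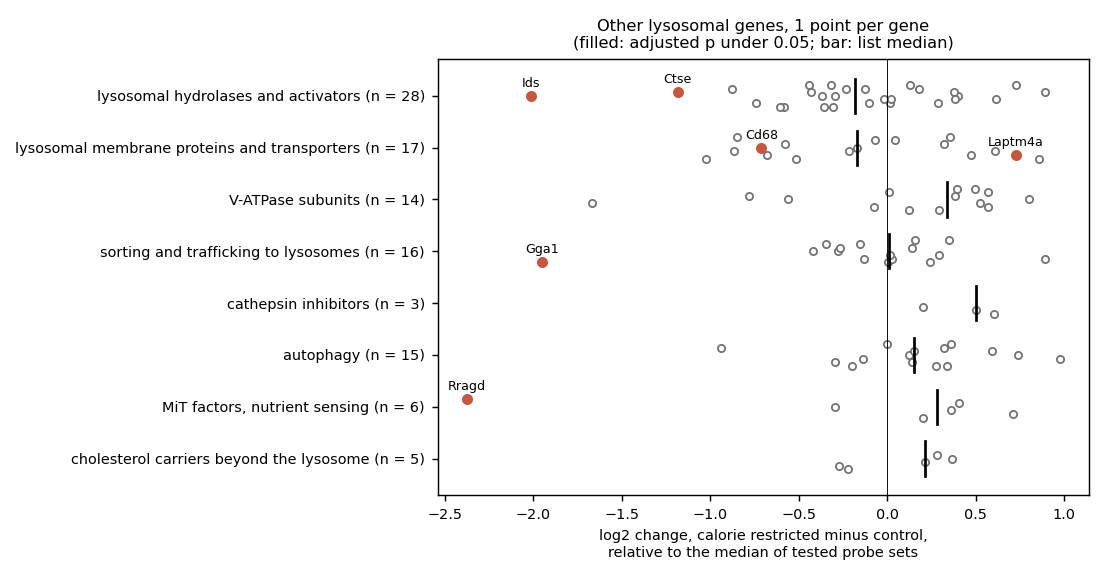
Log2 ratio of calorie restricted to control mice for 104 other lysosomal and neighbouring genes, relative to the median of all tested probe sets, 1 point per gene by its brightest probe set, in 8 lists with the number tested; filled points passed a limma adjusted p under 0.05 and bars are list medians. The 6 filled points are Ids, Ctse, Cd68, Gga1 and Rragd below 0 and Laptm4a above it.

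Some markers of the cell types in the tissue moved as well, and their part in the changes above was not tested. Over all 5695 genes tested by their brightest probe set, 233 rose and 367 fell, together 10.5%. Microglia, rich in lysosomal transcripts, had 11 markers on the array, 0 of them at 0 and 1, Itgam, below the filter. Their summed intensity ran from 11404 to 15144 in control and from 9862 to 12877 in calorie restricted mice (exact two-sided permutation p = 0.119, adjusted p = 0.179 over 6 cell types). Cd68, Ctss and Laptm5 stand both in this list and in the lysosomal lists. Of 10 tested, 2 fell, Cd68 and the fractalkine receptor Cx3cr1 at -0.95 ± 0.22 (SE; limma adjusted p = 0.0145). The other 8 went both ways: Aif1, the cytoskeletal protein IBA1, missed the threshold at 1.31 ± 0.35 without overlap of the diets (limma adjusted p = 0.0520), and C1qa had -2.10 ± 1.09 (limma adjusted p = 0.179); both are named after their values were seen. The 10 astrocyte markers summed to 24178 to 28204 in control and 28627 to 31916 in calorie restricted mice, without overlap (exact two-sided permutation p = 0.00794, adjusted p = 0.0476 over 6 cell types), while 4 of the 10, Atp1b2, Fgfr3, Slc4a4 and Aqp4, passed in limma with changes of -1.19 to -2.12. Sums add linear intensities, so bright genes weigh most in them. Among bright astrocyte markers, Aldoc changed by 0.56, Gja1 by 0.89 and Clu by -0.088, all short of the threshold and named after their values were seen. Gja1 and Clu each had 1 other tested probe set, which went the other way. The median change of the 10 was -0.13, so the higher sum is not a rise of the list. Of 10 neuronal markers Thy1, a surface glycoprotein, rose by 0.79 ± 0.17 (limma adjusted p = 0.0378), and 3 fell: Syt1, the calcium sensor of synaptic vesicles, at -3.40, the neurofilament gene Nefl at -1.01 and Map2, of dendritic microtubules, at -2.83. The other 6 did not pass, and the list median was 0.22. Thy1 had only 0.23 under quantile normalization (limma adjusted p = 0.389). Leaving out calorie restricted replicates 3 and 5 took Thy1 and Map2 past 0.05 (limma adjusted p = 0.0688 and 0.143). Syt1 and Nefl stayed under it (limma adjusted p = 0.00968 and 0.0394). The 11 neuronal markers on the array summed to 44150 to 57658 in control mice. In calorie restricted mice they summed to 52122 to 62598 (exact two-sided permutation p = 0.0476, adjusted p = 0.143 over 6 cell types). Of 7 oligodendrocyte markers 3 fell: Cldn11 and Mal, both of the myelin membrane, at -0.64 and -0.47, and Ugt8a, which makes myelin galactolipids, at -1.71. The other 4 went both ways, from -0.79 for Mag to 0.87 for Mobp, both named after their values were seen. Mobp missed the threshold (limma adjusted p = 0.0511), and its 3 other tested probe sets went the other way. Ugt8a missed it once calorie restricted replicates 3 and 5 were left out, at -1.19 (limma adjusted p = 0.0826). Cldn11 and Mal passed there (limma adjusted p = 0.00981 and 0.0265). The 8 oligodendrocyte markers on the array summed to 23378.5 to 25826.8 in control and 19333 to 27496.3 in calorie restricted mice (exact two-sided permutation p = 0.635). The calorie restricted mean log2 signals of Atp1b2, Fgfr3, Map2 and Ugt8a, 6.80, 5.94, 5.90 and 6.16, lay below the lowest mean tested, 6.85, as did the control mean of Aif1, 6.49, so the sizes of these changes are uncertain. The 5 choroid plexus markers, of a tissue that lies against the hippocampus, summed to 3278 to 11720 in control and 947 to 15398 in calorie restricted mice (exact two-sided permutation p = 0.119, adjusted p = 0.179 over 6 cell types). Of these markers, 2 of 4 tested fell: the folate receptor Folr1 at -1.36 and Foxj1, a factor of ciliated cells, at -0.84. Both missed the threshold with calorie restricted replicates 3 and 5 left out, at -1.16 and -0.69 (limma adjusted p = 0.0547 and 0.0850). Of 5 endothelial markers limma called 0, with 0 at an unadjusted p under 0.05.

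Over the 10 arrays, the 2 genes whose log2 signal was most like that of each member's brightest probe set were found by Pearson's r, as a description with no test, since the arrays share the differences in diet and RNA quality given above. Npc1 was most like Pptc7 (r = 0.971) and Dnajc8 (0.953), and Lamp1 most like Rnf8 (0.954) and Gstm1 (0.944). Psap 97114_at was most like Klc1 (0.980) and Apoe (0.971), Ctsd most like Bcl2l1 and Gtpbp1 (both 0.981), and Ctsb 94831_at most like Get4 (0.991) and Idh2 (0.957). Ctsl was most like Mterf3 (0.927) and Fhl1 (0.923), and Ctsz most like Col18a1 (0.935) and Psmc5 (0.886). Lamp2 101590_at was most like Utp18 (0.911) and Scarb2 (0.879), the latter another lysosomal membrane protein and the only gene named here that belongs to the 8 lists.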

How the data were processed

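Per the submitters' processing notes, the authors computed the deposited intensity values with MAS5, 1 linear value per probe set and array; its version and settings are not stated. The deposited intensity values have an equal trimmed mean on every array, so overall brightness had been scaled before deposit. Before taking log2, 41 of 124880 values were raised to a floor of 1, then 66 control probe sets were left out, and of the other 12422 those with a mean below the 40th percentile were dropped, leaving 7453. The comparison of diets used lmFit and eBayes with a variance trend (limma 3.58.1, R 4.3.3) with Benjamini-Hochberg adjustment over all 7453. The fit was checked on simulated data. Array measures used exact permutation tests. Gene symbols came from the platform annotation, updated through RefSeq by gene number (10817 of 10833 probe sets with 1 symbol). Signals of different probe sets were not read as relative amounts of their transcripts. They were used together for the filter, brightness ranks, marker sums, 3' minus 5' differences and likeness over arrays. Nothing states that the mice came from separate cages or days, so p-values measure the spread between these animals and arrays.

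The members and lists were chosen with earlier results of these data known. The text names every member and, of each list, every gene past the threshold, or the 4 with the smallest p where more passed; other names are marked. Alternatives changed the normalization, centring, filter, offset, variance model, weights, covariates, replicate block, arrays, threshold and probe sets per gene.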

Additional observations from a re-analysis of the deposited data

Results flagged for a closer look

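In control mice, replicate 5 had a log2 3' minus 5' difference for Gapdh of 0.62, while the next highest control was at -0.089. Its gap to the nearest array was 0.774 of the whole range of the 5 control arrays, above the critical value of 0.71 for Dixon's ratio. This was the only array singled out among 50 groups of 5 that were examined, and chance singles out about 1 in 20.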

How the results depend on the processing

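Npc1 kept its direction in every alternative run. It passed in all of them except with RNA quality as a covariate, and with spike-in signal added to it. Lamp1, Lamp2 100136_at, Psap 161476_at, Psap 97560_at, Ctsb 92256_at and Ctsz also kept their directions. Of all probe sets, 883 passed, 306 higher and 577 lower; under quantile normalization the split was 321 and 282, and with arrays centred 575 and 266. The counts of all probe sets, member probe sets and list genes that passed, 883, 4 and 6, became 333, 2 and 3 with RNA quality as a covariate and 0, 0 and 0 with spike-in signal added, where limma gave 907 probe sets at an unadjusted p under 0.05. Both covariates separate the diets: the highest control and lowest calorie restricted arrays had 0.45 and 0.78 for RNA quality. For spike-in signal they had 11.80 and 12.41. These fits therefore cannot tell diet from array quality. At a threshold of 0.1 they were 1627, 6 and 13. Member calls were 2 under quantile normalization, with no filter and without the variance trend. With 1 array left out the counts ran from 268 to 1278, from 1 to 6 and from 2 to 8. The difference in RNA quality ran from 1.92 to 3.25 with 1 array left out and was 0.876 without calorie restricted replicates 3 and 5, and without control replicates 1 to 4 in turn the exact permutation p was 0.0556 to 0.0635. The diets did not overlap in these fits either. Unequal groups let splits with calorie restricted replicates 3 and 5 in the smaller group give a larger opposite difference, which the two-sided p counts. With any 1 calorie restricted array left out the exact permutation p was 0.00794. Replicate numbers did not pair the mice: deviations of same-numbered arrays correlated from -0.076 to 0.17. With the replicate block 540 probe sets, 3 member probe sets and 5 list genes passed.

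No member probe set that had passed reversed. Of the list genes that had passed, 4 did, all with both covariates, where limma called 0: Cd68 had 0.11, Aqp4 0.26, Folr1 0.16 and Foxj1 0.030. Of the members that had not passed, Ctsb 94831_at had -0.072 and Psap 97114_at -0.37 under quantile normalization. Ctsb 95608_at had -0.024 with array weights, -0.28 with RNA quality, -0.12 with both covariates, -0.15 without calorie restricted replicates 3 and 5, and -0.048 to 0.21 with 1 array left out. Ctsd had 0.14 and 1.53, and Ctsl -0.043 and -0.38, with RNA quality and with both covariates, and Lamp2 101590_at had 0.46 with both. Beyond the alternatives' own construction, the cause was not tested. Dim signal limits Psap 97560_at, and 5 arrays per diet limit every comparison.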

Other observations

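The core CACGTG was also looked for in the promoter windows of the 8 gene lists, as a description with no test. Of 122 list genes with a window, 30 hold it in at least 1, or 24.6%, against 8.09% of 27025 genes. The lists were chosen by function, and genes with several windows had more chances to hold it.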
